A study of Canis lupus familiaris with 8 samples.

Results

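The genes described here are 31 genes of the red cell lineage, chosen by symbol from a list of globins, enzymes of heme synthesis, red cell membrane proteins and erythroid regulators. All 31 were found, each in 1 row, among the 35048 rows of the count tables. The samples were peripheral blood mononuclear cells (lymphocytes and monocytes) of 5 obese and 3 normal dogs, with 1 RNA library for each dog. For obese dogs 1 to 5 the breeds given are, in that order, Dachshunds, Chihuahua, Labrador retrievers (obese dogs 3 and 4) and Welsh Corgi, and each normal dog was a Beagle. Body condition and breed therefore cannot be told apart in any value below, and no treatment is given for either group. Not given in the sources used here were age, sex and body weight.

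Red cells carry oxygen on hemoglobin, which is built from alpha-like and beta-like globin chains and heme. Heme is made in a chain of enzyme steps that starts and ends in mitochondria, and iron reaches it through the transferrin receptor. Mature red cells of dogs have no nucleus, whereas reticulocytes, the young red cells in blood, still hold globin mRNA. Separation of mononuclear cells removes most red cells, so erythroid mRNA in such a preparation comes from a minor cell fraction, and in bulk RNA more cells of a type and more RNA per cell cannot be told apart.

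Library totals ran from 10264202 to 14910982 counts. Values are CPM, the counts of a gene relative to a library size scaled by the trimmed mean of M-values (TMM), and because the libraries hold 1 tag near the poly(A) end of each transcript, CPM depends little on transcript length. The markers of T cells and of monocytes (10 genes each) were detected in every library. Before any result on the red cell genes, 2 libraries have to be named. Obese dog 1 had the highest summed level of 11 platelet markers (3659 CPM, against 142 to 1251 CPM in the other obese dogs and 44.9 to 76.9 CPM in the normal dogs). Obese dog 3 had the highest neutrophil markers of the obese dogs (7195 CPM over 13 genes, against 249 to 1009.9 CPM in the other obese and 1729 to 7027 CPM in the normal dogs). It also had the lowest T cell markers of the obese dogs (543 CPM, against 1080 to 1459 CPM in the other obese and 348 to 466 CPM in the normal dogs). The part of these other cell types in the results below was not tested.

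Of the 28 genes with enough counts for a test, 24 had a positive and 4 a negative log2 fold change (obese minus normal). Of all genes tested, 55.3% were positive. Levels differed widely between the obese dogs. AHSP, the chaperone of free alpha-globin, was read in all 5 obese dogs and in no normal dog. AHSP, HBM and ALAS2 stood at 284, 283 and 569 CPM in obese dog 3 and at most at 12.2 CPM in any other library. STEAP3, which reduces iron for heme synthesis, and CPOX, an enzyme of the heme pathway, were lower in every obese dog than in any normal dog. Of all genes tested, 5.16% were lower in this way. None of the 28 genes passed edgeR's test over all 8 dogs. With limma-voom and quality weights 8 of the 28 passed, where 17.8% of all genes did. AHSP, UROS, FECH, GYPC and GATA1 were higher and HBQ1, CPOX and STEAP3 lower in the obese dogs. DESeq2 passed TRIM58 and GATA1 as higher and STEAP3 as lower, where 5.3% of genes passed. AHSP and TRIM58 entered these tests only through the obese dogs.

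Of the 31 genes, 28 had enough counts to be tested. With edgeR's quasi-likelihood test 0 of the 28 passed at an adjusted p under 0.05, where 0.233% of the 20632 genes tested passed (0.0485% higher and 0.184% lower in the obese dogs). At an unadjusted p under 0.05 there were 13 (46.4%), 11 higher and 2 lower in the obese dogs, where 15.7% of all genes had such a p. DESeq2 passed 3 of the 21 for which it gave an adjusted p, TRIM58 and GATA1 higher and STEAP3 lower, where 5.3% of genes passed (3.09% higher, 2.21% lower). It gave no p for the other 7, HBM, HBQ1, AHSP, ALAS2, BPGM, KLF1 and HEMGN, and each of these was highest in obese dog 3. In limma-voom with quality weights for the libraries 8 passed, 5 higher and 3 lower, where 17.8% of genes passed (8.45% higher, 9.34% lower). The median log2 fold change, obese minus normal, was 1.00 over the 28 genes and 0.09 over all genes tested, and 24 of the 28 were positive, where 55.3% of all genes were. Of the 28, 5 (HBM, HBE1, AHSP, HEMGN and TRIM58) reached the level the filter asks for in no normal library. GATA1 and KLF1 reached it in normal dog 2 only. The 5 entered the test only through the obese dogs, and GATA1 and KLF1 could not have entered without them, so these counts are a description.

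**Figure D1:**
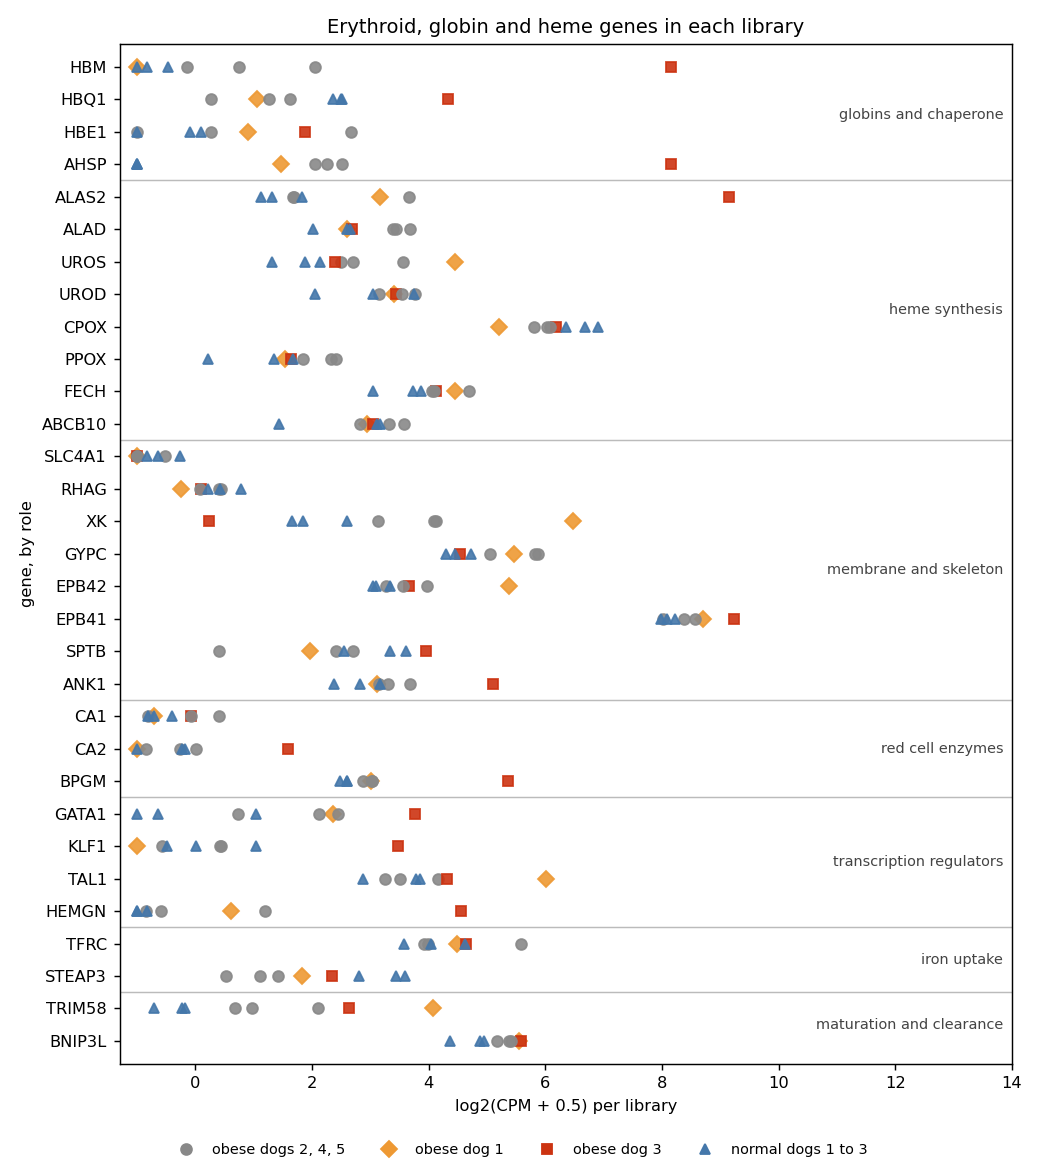
Level of each of the 31 genes in each library, as log2(CPM + 0.5) on the horizontal axis, with genes grouped by role on the vertical axis. Each point is 1 library: circles are obese dogs 2, 4 and 5, the diamond is obese dog 1, the square is obese dog 3 and triangles are the 3 normal dogs. AHSP, HBM and ALAS2 in obese dog 3 (284, 283 and 569 CPM) lie far to the right of the other libraries, and the diamond lies farthest right for XK, TAL1 and TRIM58.

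The 2 groups did not overlap for 8 of the 28 genes. AHSP, UROS, FECH, BPGM, TRIM58 and BNIP3L were higher in each obese dog than in any normal dog (6 genes, 21.4%, where 5.75% of all genes tested were). AHSP and TRIM58 are among those that entered the test only through the obese dogs, so this share is a description. CPOX and STEAP3 were lower in each obese dog (2 genes, 7.14%, where 5.16% of all genes were). The highest of the 8 libraries was an obese one for 25 of the 28 genes (89.3%, against 69.5% of all genes), and it was obese dog 3 for 12 of them (42.9%, against 19.5% of all genes).

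AHSP, HBM and HBQ1 were each highest in obese dog 3 and differed among the other dogs. AHSP had 20, 79, 2505, 77 and 62 counts in obese dogs 1 to 5 and 0 counts in each of the 3 normal dogs. These are 2.27, 5.22, 284, 4.29 and 3.62 CPM in the obese dogs. A count of 0 over the 3 normal libraries allows up to 0.0770 CPM (3 counts over the group). Against that limit AHSP was at least 525-fold higher in the pooled obese libraries and at least 52.3-fold higher in the obese dogs without dog 3. In the dog with the lowest value, obese dog 1, it was at least 29.4-fold higher. All 5 obese dogs thus lay above all 3 normal dogs, and obese dog 3 lay 71.8 times above the median of the other obese dogs.

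The difference in AHSP did not pass edgeR's test over all 8 dogs (adjusted p = 0.224), and it passed in the limma-voom fit with quality weights (adjusted p = 0.00963). With obese dog 3 left out AHSP rose past the threshold (adjusted p = 0.00311, edgeR, 4 obese against 3 normal dogs, higher in 4 of 4). Over the 17 alternatives that gave an adjusted p (DESeq2 gave none) the adjusted p ran from 0.00311 to 0.566. Of all genes, 8.45% rose in that limma-voom fit and 3.25% rose with edgeR without obese dog 3. AHSP entered these tests only through the obese dogs, so its p-values are a description. The fitted log2 fold changes of AHSP, HBM and HEMGN depend on how counts of 0 are offset and are not read as sizes here.

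HBM encodes the mu chain, an alpha-like globin. It had 0, 55, 2499, 21 and 7 counts in obese dogs 1 to 5 and 0, 2 and 1 counts in normal dogs 1 to 3. The groups overlapped, because obese dog 1 had no HBM count although it had 20 counts of AHSP. Over the pooled libraries the ratio of obese to normal CPM was 494 (exact 95% interval 169 to 2397, counting error only). The ratio was 18.3 without obese dog 3 (interval 6.03 to 90.3), which held 2499 of the 2582 HBM counts of the obese dogs. The test gave an adjusted p = 0.260 for HBM (edgeR, 8 dogs), and without obese dog 3 the gene had too few counts to be tested.

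HBQ1, the theta globin gene of the alpha-globin cluster, had an almost constant level in the normal dogs, at 4.64, 5.20 and 5.17 CPM. In obese dogs 1, 2, 4 and 5 it had 1.59, 2.58, 1.90 and 0.700 CPM, all below the normal dogs, while obese dog 3 had 19.5 CPM. The log2 fold change was 0.05 with a standard error (SE) of 0.94 (adjusted p = 0.985, edgeR). In the fit without obese dog 3 it was −1.59 with a standard error of 0.47 (adjusted p = 0.063, edgeR). Its sign was also negative with upper-quartile scaling (−0.03), with plain library totals (−0.20) and in the limma-voom fit with quality weights (−1.57, adjusted p = 0.0378). In these 4 obese dogs HBQ1 and AHSP therefore differed from the normal dogs in opposite directions.

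HBE1, the embryonic epsilon globin, had few counts. It had 12, 89, 28, 0 and 12 counts in obese dogs 1 to 5 and 0, 4 and 9 counts in normal dogs 1 to 3. Its highest value, 5.88 CPM, was in obese dog 2 and not in dog 3, and the groups overlapped (adjusted p = 0.399, edgeR).

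The alpha-globin and beta-globin genes themselves carry no globin symbol in these tables. The annotation used for names places 4 uncharacterised protein-coding genes between or beside HBQ1 and HBM, and 5 beside HBE1. These 9 genes were added after their values had been seen. Together they took 0.146, 0.335, 8.14, 0.0246 and 0.0378% of the counts of obese dogs 1 to 5. In normal dogs 1 to 3 their share was 0.000983, 0.00807 and 0.00356%. The share of obese dog 3 had a Wilson 95% interval of 8.13 to 8.16%, and even the lowest obese share lay above the highest normal share. Obese dog 3 also led this set, as it led AHSP and HBM, and the order of the other obese dogs was 2, 1, 5 and 4.

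In 5 of these 9 genes there were enough counts for the test. Each of the 5 was higher in every obese dog than in any normal dog, where 5.75% of all genes tested were. The 9 genes were added with their values known, so this count is a description. LOC476825 had 2, 0 and 21 counts in normal dogs 1 to 3 and could not have entered the test without the obese dogs. LOC480784, beside HBE1, had 645, 1098, 25632, 60.2 and 122 CPM in obese dogs 1 to 5 and 3.02, 18.0 and 10.3 CPM in the normal dogs. LOC100855540, between HBQ1 and HBM, had 138, 369, 25815, 28.9 and 33.7 CPM against 0.914, 17.4 and 5.74 CPM. LOC480784 and LOC609402 had 251844 and 253842 counts in all, with ratios of 0.827 to 1.12 within a library, and reads shared between near-identical copies cannot be told apart. Over all 8 dogs none of the 5 passed with edgeR (adjusted p = 0.179 to 0.244). LOC480784 and LOC609402 passed in the limma-voom fit with quality weights (adjusted p = 0.0441 and 0.0456). Without obese dog 3, LOC480784 (a log2 difference of 5.50, SE 1.22, adjusted p = 0.0335) and LOC609402 (5.38, SE 1.24, adjusted p = 0.0371) passed. Of all genes, 8.45% rose in that limma-voom fit and 3.25% rose with edgeR without obese dog 3.

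**Figure D2:**
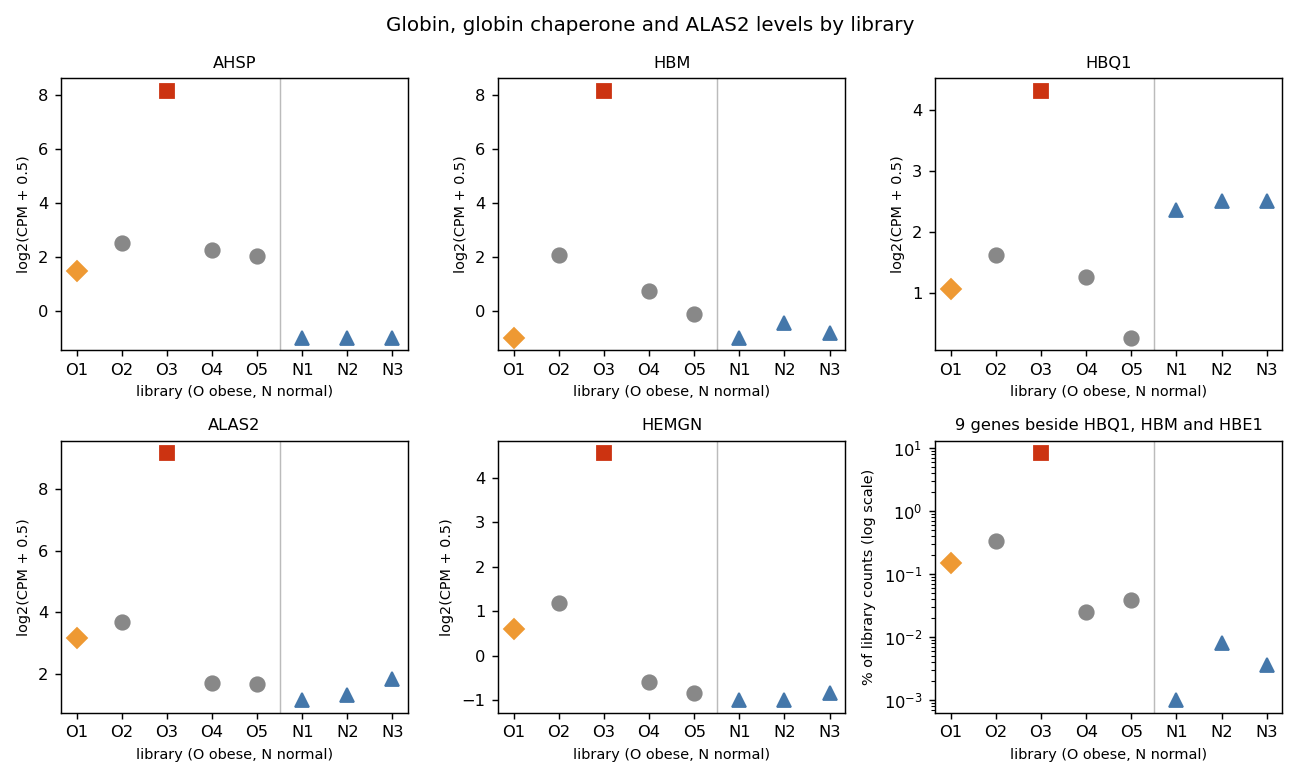
AHSP, HBM, HBQ1, ALAS2 and HEMGN as log2(CPM + 0.5) in each library, and the summed share of counts of the 9 uncharacterised genes beside the named globin genes (percent, log axis). O1 to O5 are obese dogs and N1 to N3 normal dogs, and each point is 1 library. Obese dog 3 (square) is highest in every panel, AHSP is at 0 counts in all 3 normal dogs, and for HBQ1 the normal dogs (4.64 to 5.20 CPM) lie between obese dog 3 and the other obese dogs.

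Heme synthesis starts with ALAS2, the erythroid form of its rate-limiting enzyme. ALAS2 had 8.51, 12.2, 569, 2.73 and 2.68 CPM in obese dogs 1 to 5 and 1.69, 1.99 and 3.06 CPM in normal dogs 1 to 3. The value of obese dog 3 was 101 times the median of the other obese dogs. Obese dogs 4 and 5 had values between those of the normal dogs, so the groups overlapped. Its log2 fold change was 5.71 with a standard error of 2.24 (adjusted p = 0.276, edgeR), and 1.49 with a standard error of 0.61 without obese dog 3 (adjusted p = 0.149). ALAS1, the form of the enzyme found in all tissues, did not share this profile, with 62.4 to 188 CPM in obese against 110 to 326 CPM in the normal dogs.

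The later enzymes of the pathway lacked the peak in obese dog 3. In the order of the reactions, ALAD had 8.81 ± 2.97 CPM (SD, n = 5 obese) and 4.95 ± 1.22 CPM (SD, n = 3 normal), and UROS had 9.72 ± 7.06 against 3.02 ± 0.949 CPM. UROD had 10.6 ± 1.72 against 8.10 ± 4.62 CPM, and PPOX had 3.49 ± 1.12 against 1.79 ± 1.03 CPM. FECH, ferrochelatase, which inserts the iron, had 19.3 ± 4.00 CPM in obese against 11.5 ± 3.31 CPM in the normal dogs. Per library FECH had 21.4, 25.4, 17.0, 16.6 and 16.2 CPM in obese dogs 1 to 5. In normal dogs 1 to 3 it had 12.7, 14.1 and 7.78 CPM. For these 5 enzymes obese dog 3 lay at 0.553 to 0.972 times the median of the other obese dogs. None passed edgeR's test over all 8 dogs (adjusted p = 0.231 to 0.682), while UROS and FECH passed in the limma-voom fit with quality weights (adjusted p = 0.0495 and 0.0271).

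UROS was higher in each obese dog (21.4, 5.16, 4.76, 5.97 and 11.3 CPM) than in any normal dog (3.87, 1.99 and 3.19 CPM). Its log2 fold change was 1.67 with a standard error of 0.59 (adjusted p = 0.231, edgeR). An uncharacterised noncoding gene overlaps UROS in the annotation and its counts moved with those of UROS (886 against 732 counts in all, r = 0.956 over 8 libraries, descriptive). Because no strand use was given in the sources used here, reads of the 2 genes cannot be told apart.

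CPOX, which acts between UROD and PPOX, went the other way. It had 36.4, 65.0, 71.7, 67.0 and 55.5 CPM in obese dogs 1 to 5 and 119, 81.4 and 101 CPM in normal dogs 1 to 3. Each obese dog lay below each normal dog, and the log2 fold change was −0.77 with a standard error of 0.26 (adjusted p = 0.221, edgeR). CPOX fell past the threshold in the limma-voom fit with quality weights (log2 fold change −0.77, adjusted p = 0.0247), and over the 18 alternatives its adjusted p ran from 0.0247 to 0.644. ABCB10, a transporter of the inner mitochondrial membrane needed for heme synthesis in erythroid cells, had 8.46 ± 1.98 CPM in obese against 6.28 ± 3.53 CPM in the normal dogs, with overlapping ranges.

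The proteins of the red cell membrane and its skeleton did not move as 1 block. EPB41, which ties spectrin to actin and is also made in white cells, had the highest level of this group. It had 418, 380, 601, 258 and 332 CPM in obese dogs 1 to 5 and 299, 272 and 253 CPM in the normal dogs (a log2 difference of 0.53, SE 0.29, adjusted p = 0.403, edgeR). GYPC, glycophorin C, had 43.4, 57.8, 22.7, 55.8 and 32.7 CPM in obese against 26.0, 21.2 and 19.1 CPM in the normal dogs. Obese dog 3 was the 1 obese dog within the normal range of GYPC. Over all 8 dogs the log2 fold change of GYPC was 0.94 with a standard error of 0.34 (adjusted p = 0.240, edgeR), and without obese dog 3 GYPC rose past the threshold, with 1.07 and a standard error of 0.27 (adjusted p = 0.0373, higher in 4 of 4 dogs).

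XK, which carries the Kx blood group antigen, had a low value in obese dog 3 and a high one in obese dog 1. It had 88.4, 16.9, 0.680, 8.25 and 16.5 CPM in obese dogs 1 to 5 and 3.09, 2.66 and 5.55 CPM in normal dogs 1 to 3. Obese dog 3 thus had the lowest XK value of all 8 libraries, with 6 counts, and the other 4 obese dogs lay above all normal dogs. For XK the log2 fold change was 2.78 with a standard error of 1.22 (adjusted p = 0.315, edgeR), and 3.05 with a standard error of 0.84 without obese dog 3 (adjusted p = 0.0581).

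EPB42, which links band 3 to ankyrin, had 40.9 CPM in obese dog 1, 9.10 to 15.1 CPM in the other obese and 7.75 to 9.63 CPM in the normal dogs. ANK1, the ankyrin that binds band 3, had 33.8 CPM in obese dog 3, 8.17 to 12.4 CPM in the other obese and 4.71 to 8.41 CPM in the normal dogs. SPTB, beta-spectrin, had 15.0 CPM in obese dog 3, 0.816 to 6.02 CPM in the other obese and 5.34 to 11.7 CPM in the normal dogs. None of these 3 passed (adjusted p = 0.343 to 0.733, edgeR), and EPB42 overlaps CCNDBP1 in the annotation. RHAG, the Rh-associated glycoprotein, had 82 counts over all libraries. SLC4A1, the anion exchanger band 3 and among the most abundant proteins of the red cell membrane, had 9 counts over all 8 libraries and 0 in obese dog 3. SLC4A1 was thus near 0 in every library, also in obese dog 3, which had the most AHSP and HBM counts.

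Of the red cell enzymes, only BPGM had enough counts for the test. BPGM makes the bisphosphoglycerate that lowers the oxygen affinity of hemoglobin. It had 7.60, 6.81, 40.6, 7.70 and 7.64 CPM in obese dogs 1 to 5 and 5.06, 5.53 and 5.55 CPM in normal dogs 1 to 3. Both groups were tight apart from obese dog 3, which was 5.33 times the median of the other obese dogs, and the groups did not overlap. The log2 fold change was 1.38 with a standard error of 0.66 (adjusted p = 0.347, edgeR), and 0.43 with a standard error of 0.31 without obese dog 3 (adjusted p = 0.396). The carbonic anhydrases CA1 and CA2 had 34 and 48 counts over all libraries, of which 22 counts of CA2 were in obese dog 3.

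The 4 transcription regulators had positive log2 fold changes in the edgeR fit over all 8 dogs, and none passed there. The value of KLF1 was negative with limma-voom (−0.037). GATA1, the zinc finger factor required for red cell and megakaryocyte development, had 41, 75, 115, 69 and 20 counts in the obese dogs and 2, 14 and 0 counts in the normal dogs. These are 4.65, 4.96, 13.0, 3.85 and 1.17 CPM against 0.141, 1.55 and 0 CPM, and only obese dog 5 lay within the normal range. The log2 fold change of GATA1 was 3.39 with a standard error of 1.21 (adjusted p = 0.237, edgeR). It passed with DESeq2 (3.34, adjusted p = 0.0271) and in the limma-voom fit with quality weights (5.26, adjusted p = 0.0149), and over the 18 alternatives the adjusted p ran from 0.0149 to 0.602. GATA1 could not have entered these tests without the obese dogs, since only normal dog 2 reached the level the filter asks for.

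HEMGN, a nuclear protein of blood-forming cells that is a target of GATA1, had 9, 27, 202, 3 and 1 counts in the obese dogs and 0, 0 and 1 counts in the normal dogs. The pooled ratio of obese to normal CPM was 139 (exact 95% interval 24.7 to 5509, counting error only), and 26.4 (interval 4.47 to 1068) without obese dog 3. KLF1, the factor that activates adult beta-globin, had 10.7 CPM in obese dog 3, at most 0.859 CPM in the other obese dogs and 0.211, 1.55 and 0.510 CPM in the normal dogs. The sign of KLF1 turned without obese dog 3, from a log2 fold change of 1.73 to −0.60 (adjusted p = 0.614 and 0.741, edgeR). TAL1, which acts with GATA1 in red cells and megakaryocytes, had 63.6, 17.3, 19.4, 10.9 and 9.04 CPM in obese dogs 1 to 5 and 6.82, 13.3 and 13.8 CPM in the normal dogs (a log2 difference of 1.08, SE 0.64, adjusted p = 0.440, edgeR). HEMGN and KLF1 were thus highest in obese dog 3, and TAL1 in obese dog 1.

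STEAP3 and TFRC, which serve iron uptake, differed in direction. STEAP3, the endosomal reductase that turns transferrin iron into the form that is carried onward, had 3.06, 1.65, 4.54, 2.17 and 0.933 CPM in obese dogs 1 to 5. In normal dogs 1 to 3 it had 6.47, 11.5 and 10.3 CPM, so that each obese dog lay below each normal dog. Over all 8 dogs its log2 fold change was −1.94 with a standard error of 0.51 (adjusted p = 0.132, edgeR). STEAP3 fell past the threshold without obese dog 3 (−2.32, SE 0.45, adjusted p = 0.0153), with DESeq2 (adjusted p = 0.0108) and in the limma-voom fit with quality weights (adjusted p = 0.00341), and over the 18 alternatives the adjusted p ran from 0.00341 to 0.580. TFRC, the transferrin receptor, which dividing cells of all kinds also carry, had 21.9, 47.3, 24.3, 14.6 and 15.3 CPM in obese against 24.0, 11.4 and 16.0 CPM in the normal dogs (a log2 difference of 0.52, SE 0.43, adjusted p = 0.593). In the same libraries 10 markers of dividing cells had summed levels of 72.9 to 235 CPM in obese against 306 to 502 CPM in the normal dogs, and their part in the values of TFRC and STEAP3 was not tested.

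TRIM58 and BNIP3L, listed for the last steps of red cell maturation, were higher in each obese dog than in any normal dog. Of all genes tested, 5.75% were. TRIM58 entered the test only through the obese dogs, so its values and p-values are a description. TRIM58, a ubiquitin ligase that acts as the nucleus is expelled, had 16.3, 3.77, 5.67, 1.45 and 1.11 CPM in obese dogs 1 to 5 and 0.352, 0.111 and 0.383 CPM in the normal dogs. It had 144 counts in obese dog 1 and 12 counts in the 3 normal dogs together. The log2 fold change of TRIM58 was 4.22 (SE 1.05), with the smallest adjusted p of the 28 genes (0.123, edgeR). TRIM58 rose past the threshold without obese dog 3 (4.16, SE 1.08, adjusted p = 0.0448) and with DESeq2 (4.28, adjusted p = 0.000571), and over the 18 alternatives the adjusted p ran from 0.000571 to 0.462.

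BNIP3L, the mitophagy receptor that clears mitochondria from reticulocytes, had 46.3, 41.3, 47.4, 41.9 and 35.6 CPM in obese against 30.3, 20.0 and 29.0 CPM in the normal dogs. Its log2 fold change of 0.68 had a standard error of 0.24 (adjusted p = 0.234, edgeR), and obese dog 3 did not stand apart. A noncoding gene with 8257 counts overlaps BNIP3L, which had 3880 counts, and their counts did not move together (r = −0.318 over 8 libraries, descriptive).

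Leaving out obese dog 3 changed the result for the list. Of the 26 genes then tested, 4 passed (15.4%, where 8.28% of the 20344 genes passed). AHSP, GYPC and TRIM58 rose (3 genes, 11.5%, where 3.25% of all genes rose) and STEAP3 fell (1 gene, 3.85%, where 5.03% of all genes fell). AHSP and TRIM58 could be tested only through the obese dogs, so the share that rose is a description. The median log2 fold change of the 26 genes was 0.68, against 0.02 over all genes, and 20 of the 26 were positive, where 51.2% of all genes were. Leaving out any other single dog, 0 of the listed genes tested passed, where 2 to 33 of all genes tested did.

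**Figure D3:**
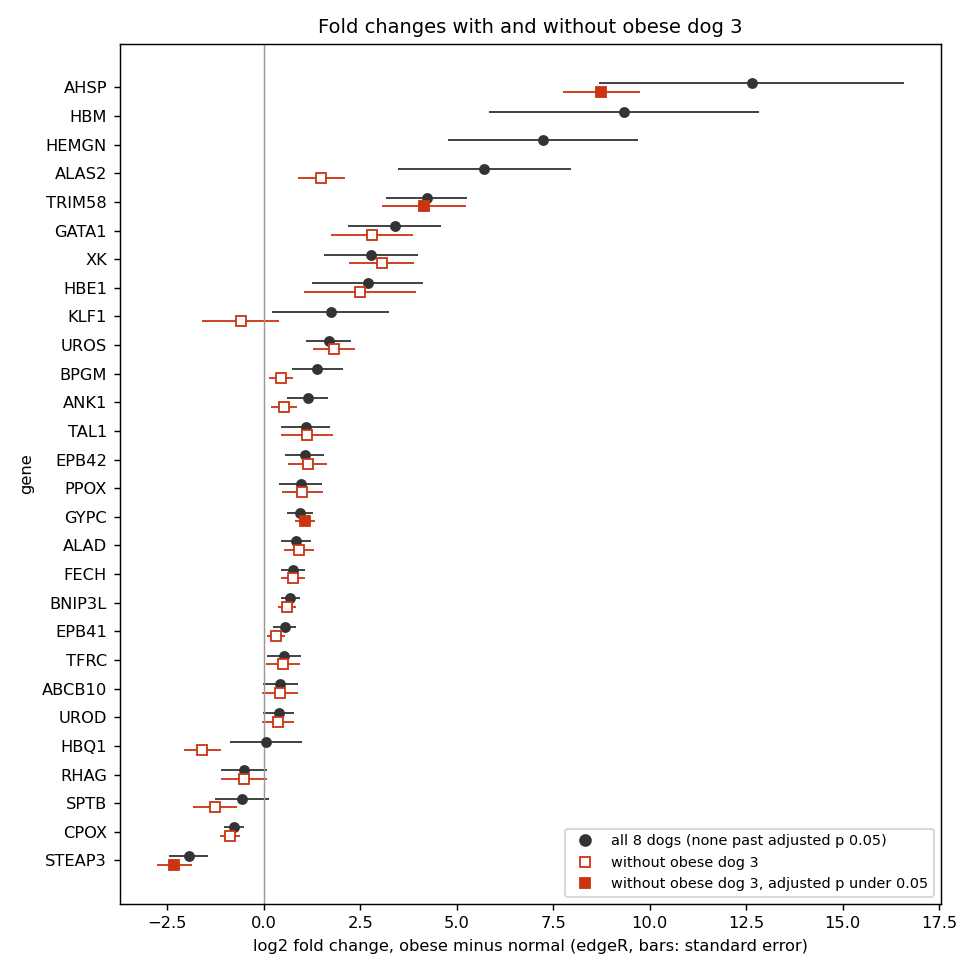
Log2 fold change, obese minus normal, of the 28 genes tested, with bars of 1 standard error on the horizontal axis and genes ordered by the value over all 8 dogs. Circles are the fit over all 8 dogs, squares the fit without obese dog 3, filled where the adjusted p was under 0.05. AHSP, TRIM58, GYPC and STEAP3 are filled, and ALAS2 moves from 5.71 to 1.49, while HBM and HEMGN had too few counts for the second fit.

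Obese dogs 3 and 1 stood apart in different genes. In 11 of the 28 genes obese dog 3 was at least 3 times the median of the other obese dogs (12.5% of all genes tested were). These were HBM, HBQ1, HBE1, AHSP, ALAS2, SPTB, ANK1, BPGM, GATA1, KLF1 and HEMGN. For obese dog 1 the same measure gave 5 genes (5.31% of all genes), which were UROS, XK, EPB42, TAL1 and TRIM58. No gene was in both sets. The sets were formed from these values, so the counts are a description.

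In the 5 genes led by obese dog 1, that library also had the highest platelet markers. XK in obese dog 1 was 7.14 times the median of the other obese dogs, TRIM58 6.26 times, TAL1 4.51 times, UROS 3.85 times and EPB42 3.49 times. SELP and MPIG6B, the platelet markers with the highest mean level, had 1431 and 600.5 CPM in obese dog 1, 36.8 to 289 and 18.6 to 253 CPM in the other obese dogs and 15.7 to 22.4 and 6.40 to 16.5 CPM in the normal dogs. Of the 11 platelet markers measured, 10 were tested, with a median log2 fold change of 4.28. None passed with edgeR over all 8 dogs, and 10 had an unadjusted p under 0.05 (15.7% of all genes had). With DESeq2 9 rose (3.09% of all genes did) and with limma-voom 3 (8.45% of all genes did). GP1BB was at 0 in every library. In the fit without obese dog 3, 6 of the 10 rose (3.25% of all genes did). The part of platelet RNA in the values of XK, TRIM58, TAL1, UROS, EPB42 and GATA1 was not tested.

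**Figure D4:**
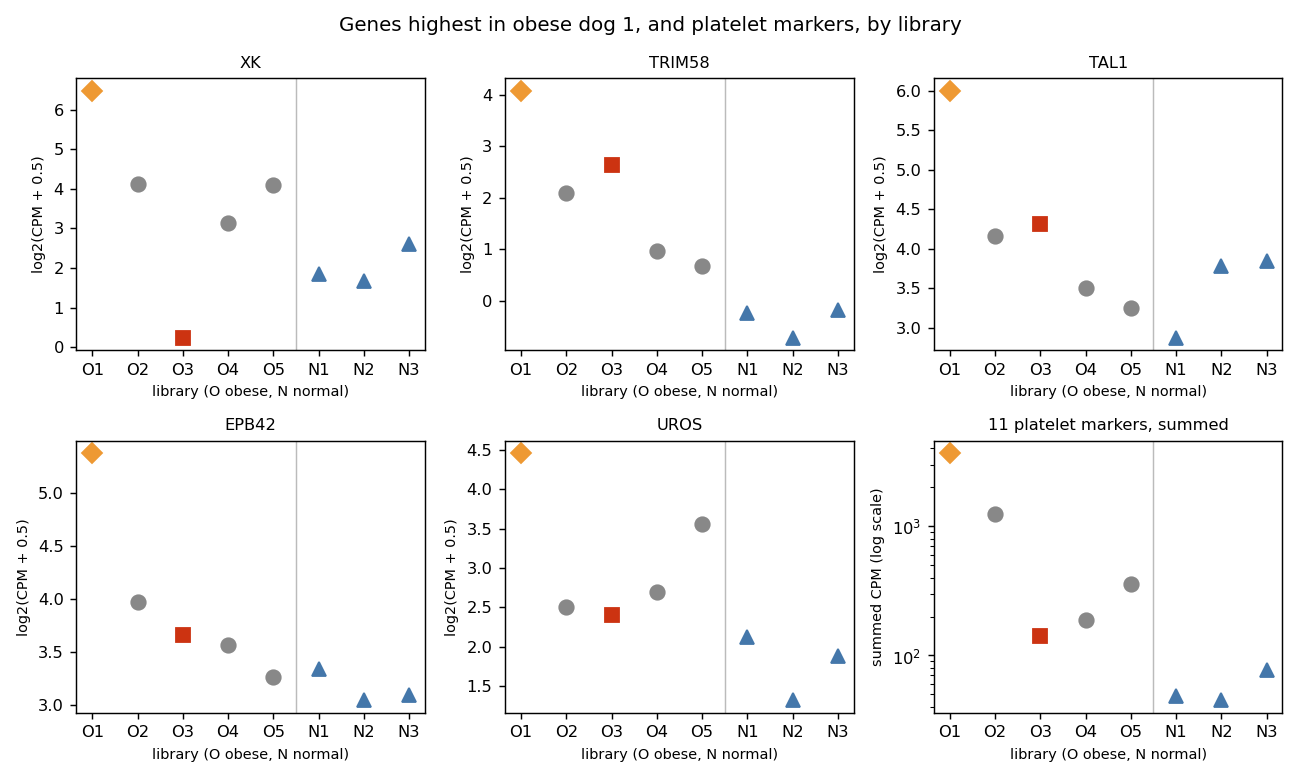
XK, TRIM58, TAL1, EPB42 and UROS as log2(CPM + 0.5) in each library, and the summed CPM of 11 platelet markers (log axis). O1 to O5 are obese dogs and N1 to N3 normal dogs, with 1 point a library. Obese dog 1 (diamond) is highest in every panel, at 88.4 CPM for XK and 3659 CPM for the platelet markers, and XK in obese dog 3 (square, 0.680 CPM) lies below the normal dogs.

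Other genes of the pathway were read from 3 lists. Over all genes tested, 15.7% had an unadjusted p under 0.05 with edgeR, and 5.3% passed with DESeq2 and 17.8% with limma-voom. Of 21 tested genes of heme and iron handling outside the 31, 12 had a positive and 9 a negative log2 fold change, the median was 0.17 and none passed with edgeR over all 8 dogs (0 at an unadjusted p under 0.05). DESeq2 also passed 0, and limma-voom 1, SLC25A37. The smallest p-values of this list belonged to BLVRB, biliverdin reductase B, to GLRX5, which serves iron-sulfur cluster assembly, and to NCOA4, the receptor that delivers ferritin for breakdown. BLVRB had 136 CPM in obese dog 3, 11.6 to 47.2 CPM in the other obese and 9.12 to 19.9 CPM in the normal dogs. GLRX5 and NCOA4 were also highest in obese dog 3, at 63.7 and 98.9 CPM. SLC25A37, the mitochondrial iron importer, fell with limma-voom over all 8 dogs (log2 fold change −1.55, adjusted p = 0.00833) and with edgeR without obese dog 3 (−1.71, adjusted p = 0.00691). Its obese dog 3 value of 200.2 CPM lay above the normal dogs (72.3, 164 and 114 CPM), while the other obese dogs had 31.3 to 43.4 CPM.

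Of 24 tested genes of the erythroid lineage outside the 31, 12 were positive and 12 negative, with a median of 0.02 and none past the threshold with edgeR over all 8 dogs (3 at an unadjusted p under 0.05). ZFPM1 rose and MPP1 fell with DESeq2 and with limma-voom, and DMTN rose with limma-voom. The 3 with the smallest p were MPP1, ZFPM1 and DMTN. MPP1, a membrane skeleton protein that white cells also express, was lower in each obese dog (25.5 to 90.6 CPM) than in any normal dog (92.5 to 175 CPM), and with edgeR it fell without obese dog 3 (log2 fold change −1.74, adjusted p = 0.00758). ZFPM1, the cofactor FOG1 of GATA1, had 1.81, 3.44, 5.67, 6.02 and 4.49 CPM in obese against 1.34, 0.111 and 1.28 CPM in the normal dogs, with groups that did not overlap (adjusted p = 0.210, edgeR). DMTN, dematin of the red cell skeleton, had 48.8 CPM in obese dog 3 and at most 1.98 CPM in any other library.

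Of 20 genes linked to reticulocyte maturation, 12 were positive and 8 negative, with a median of 0.12 and none past the threshold with edgeR over all 8 dogs (2 at an unadjusted p under 0.05). TMCC2 rose and BCL2L1 fell with DESeq2 and with limma-voom, and FOXO3 and PRDX2 fell with limma-voom. TMCC2, an endoplasmic reticulum protein, was higher in each obese dog (12.9 to 25.3 CPM) than in any normal dog (7.40 to 8.86 CPM), with a log2 fold change of 1.34 (SE 0.31, adjusted p = 0.106, edgeR), and it rose without obese dog 3. BCL2L1, which encodes the survival protein BCL-XL, had 18.0 to 49.6 CPM in obese against 47.7 to 124 CPM in the normal dogs. UBE2H, a ubiquitin-conjugating enzyme, had 211 to 526 CPM in obese against 367, 1194 and 328 CPM in the normal dogs. With edgeR BCL2L1, FOXO3 and PRDX2 fell without obese dog 3. FOXO3 and PRDX2 had 489 and 56.0 CPM in obese dog 3 and at most 148 and 1.19 CPM in the other obese dogs. In normal dog 2, whose neutrophil markers summed to 7027 CPM, FOXO3 had 675 CPM and PRDX2 35.1 CPM, and the part of neutrophil RNA in these 2 genes was not tested.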

How the data were processed

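RNA was extracted with Trizol and 500 ng was used for 3′ tag libraries (Lexogen QuantSeq), per the labels' protocols. The authors deposited raw counts per gene, 1 table a dog, and the values are whole numbers that were not normalised. Bowtie2 and bedtools are named in the submitters' processing notes, while not given in the sources used here were their versions, the genome build, the annotation and the use of strand. Tags near the poly(A) end are counted only where the annotation reaches that end, so a gene with few counts may be under-read.

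Counts of the 5 obese and 3 normal dogs were fitted without covariates by edgeR 4.0.16 (R 4.3.3; TMM scaling, the default filter on low counts, quasi-likelihood test, Benjamini-Hochberg adjustment over 20632 genes, threshold 0.05). The p-values measure the spread between these dogs, and the common biological coefficient of variation was 0.54. DESeq2 1.42.0, limma-voom (limma 3.58.1) and other settings were alternatives, 18 in all. No 2 libraries were alike (lowest chi-square per degree of freedom 39.6). On simulated counts for the comparison of obese with normal dogs (19877 genes tested, 200 changed) the test called 2% of 2-fold, 20% of 4-fold, 56% of 8-fold and 78% of 16-fold changes, and 6 of 19691 unchanged genes. Intervals and limits from counts cover counting error only, since the tags were not counted as molecules.

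The genes, lists and tests were chosen with earlier results of these data known. Among the 31 genes, values of every library were given for those past the threshold and for globins and AHSP. In each other role they were given for the gene with the smallest p and the one with the highest CPM. In each pathway list the 3 genes with the smallest p were named. Other named genes were chosen after their values were seen. Gene names and neighbours were matched to RefSeq (assembly UU_Cfam_GSD_1.0), where all 31 symbols were found. That table holds no descriptions, so unnamed globins were looked for as neighbours of named ones, and no promoter sequence was searched. The marker lists were platelet, neutrophil, monocyte, T cell, B cell, plasma cell, dividing cell and basophil.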

Additional observations from a re-analysis of the deposited data

Results flagged for a closer look

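In 4 of the 28 genes tested, 1 obese dog lay far from the other 4 by Dixon's criterion on log2(CPM + 0.5), and in each it was obese dog 3 on the high side. AHSP was at 284 CPM there against 2.27 to 5.22 CPM in the other obese dogs, and ALAS2 at 569 CPM against 2.68 to 12.2 CPM. ANK1 was at 33.8 CPM against 8.17 to 12.4 CPM, and BPGM at 40.6 CPM against 6.81 to 7.70 CPM. Chance alone marks about 1 in 20 such groups.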

How the results depend on the processing

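Over the 18 alternatives, 25 of the 28 genes kept the sign of their log2 fold change. AHSP, UROS, CPOX, FECH, GYPC, GATA1, STEAP3 and TRIM58 passed the threshold in at least 1 setting. HBQ1 also passed, in the limma-voom fit, where its sign was reversed. HBQ1 (0.05 over all 8 dogs) changed sign with upper-quartile scaling (−0.032), plain library totals (−0.20), limma-voom with quality weights (−1.57), the replicate block (−0.26) and without obese dog 3 (−1.59), and ran from −1.59 to 0.34 when single dogs were left out. KLF1 changed sign with limma-voom (−0.037) and without obese dog 3 (−0.60; −0.60 to 2.71 over dogs left out), and ABCB10 without normal dog 2 (−0.0043; −0.0043 to 0.67). Why these values moved was not tested. Among the 28 genes 0 passed, against 3 with DESeq2, 8 with limma-voom and 0 to 4 when single dogs were left out, with 4 without obese dog 3. Their median log2 fold change was 1.00, against 0.60 with limma-voom and 0.68 to 1.12 without single dogs. Over all genes 48 passed (10 higher, 38 lower), against 7 with plain library totals (0 higher, 7 lower), 1027 with DESeq2 (599 higher, 428 lower), 3669 with limma-voom (1743 higher, 1926 lower) and 2 to 1684 without single dogs, with 1684 without obese dog 3. Upper-quartile scaling moved the median of all genes from 0.09 to −0.03. With dogs 1 to 3 of each group, 0 genes passed both with the replicate block and without it. Dogs with the same number in both groups were different animals of different breeds, so the numbers do not pair them. Their deviations correlated at 0.08, −0.32 and 0.02 over 20632 genes, and those of dogs with different numbers at −0.26 to 0.31. As deviations from means of 3 dogs, these correlations cannot decide on pairing. HBM and HEMGN had too few counts for the test in some fits that left out a dog. With 5 against 3 dogs, differences of 4-fold and less were mostly below what the simulated test detected.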

Other observations

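The genes beside HBQ1 and HBM and the genes beside HBE1 did not take counts in 1 ratio. The first set divided by the second gave 0.295, 0.398, 1.09, 0.627 and 0.284 in obese dogs 1 to 5 and 0.402, 1.33 and 0.610 in normal dogs 1 to 3. Obese dog 1 had 3418 counts in the genes beside HBQ1 and HBM and 0 counts of HBM.

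The mitochondrial carrier SLC25A39 had 163 CPM in obese dog 3, 14.7 to 19.7 CPM in the other obese and 17.5 to 22.8 CPM in the normal dogs. GFI1B, a repressor of the red cell and platelet lineages, had 77.8 CPM in obese dog 3, a value not compared with the other libraries here.

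Markers of other cells also differed between the dogs. All 10 T cell markers had a positive log2 fold change (median 1.21), where 55.3% of all genes were positive. None passed with edgeR over all 8 dogs, and 9 had an unadjusted p under 0.05 (15.7% of all genes had). With DESeq2 6 rose (3.09% of all genes did) and with limma-voom 9 (8.45% of all genes did). With edgeR 6 rose without obese dog 3, where 3.25% of all genes rose. Of 8 plasma cell markers tested 1 fell with edgeR over all 8 dogs, and of 10 markers of dividing cells 1 fell, where 0.184% of all genes fell. Without obese dog 3 these were 5 of 8 and 8 of 10, where 5.03% of all genes fell.

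The neutrophil list had a median of −0.42 over 12 genes tested, the monocyte list −0.05 over 10, the B cell list 0.73 over 9 and the basophil list 0.90 over 4. No gene of these 4 lists passed with edgeR over all 8 dogs, and 0, 2, 0 and 1 had an unadjusted p under 0.05 (15.7% of all genes had). DESeq2 passed 0, 2, 0 and 1 (5.3% of all genes), and limma-voom 5, 4, 0 and 1 (17.8% of all genes). The neutrophil and monocyte genes that passed with these 2 tools were all lower in the obese dogs, and the basophil gene was higher with each.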
